A study of Homo sapiens with 8 samples.

Results

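The tripartite motif (TRIM) family was examined in PNT2, an immortalized line of human prostatic epithelium that grows in culture. The epithelial splicing factors ESRP1 and ESRP2 had been targeted for knockdown. Members were all rows of the deposited array table whose platform annotation gave exactly 1 gene symbol that reads TRIM followed by a number. This rule found 47 of 18495 rows, for 46 symbols, because TRIM52 had 2 rows. One of the 47 rows belongs to TRIM67-AS1, an RNA antisense to TRIM67. A further 18 rows joined a TRIM symbol to another symbol and were left out, among them every row of TRIM5, TRIM6, TRIM13, TRIM16, TRIM34, TRIM39, TRIM59 and TRIM71.

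The tested arrays were 4 siESRP samples, PNT2 cells in which both ESRP genes were targeted together by small interfering RNA (siRNA), so the 2 knockdowns cannot be told apart. The controls were 4 siGFP samples, PNT2 cells given siRNA against green fluorescent protein. Total RNA was depleted of ribosomal RNA and hybridized to Affymetrix human exon arrays, 1 array per sample. The labels give neither the siRNA sequences, nor the time after transfection, nor whether a group's 4 samples are separate cultures. The p-values therefore rest on the spread between these arrays, and that spread may be technical only.

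TRIM proteins carry a RING finger, 1 or 2 B-boxes and a coiled coil, and most act as ubiquitin ligases that attach ubiquitin to chosen proteins. The part after the coiled coil differs between members and picks the substrate: a PRY-SPRY domain in the largest branch, NHL repeats, a COS box that binds microtubules, or the PHD and bromodomain of the transcriptional TIF1 proteins. Several members are induced by interferon and restrict viruses or tune the RNA sensors RIG-I and MDA5, and others stabilize, degrade or bind p53.

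One DNA element links part of the family to interferon, the interferon-stimulated response element (ISRE). Its core was searched as GAAA, any 2 bases and GAAA again, on both strands of the 300 bases around each gene's start (250 before, 50 after; RefSeq, GRCh38.p14). Promoters were found for 34 of the 46 symbols and not for TRIM4, TRIM8, TRIM11, TRIM22, TRIM24, TRIM27, TRIM28, TRIM29, TRIM35, TRIM45, TRIM55 and TRIM60. The core was present in 6 of the 34 TRIM promoters, or 17.6%, and in 3.65% of all 27305 promoters of the same length. The 6 stretches are shown because they hold the only matches to this core among the 34 windows, and capitals mark the core or its reverse complement.
TRIM14: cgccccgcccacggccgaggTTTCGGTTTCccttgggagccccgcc
TRIM2: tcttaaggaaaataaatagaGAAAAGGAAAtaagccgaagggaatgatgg
TRIM21: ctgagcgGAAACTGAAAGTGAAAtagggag
TRIM26: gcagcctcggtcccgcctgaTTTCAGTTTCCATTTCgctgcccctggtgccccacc
TRIM44: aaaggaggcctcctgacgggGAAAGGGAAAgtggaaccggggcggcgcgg
TRIM69: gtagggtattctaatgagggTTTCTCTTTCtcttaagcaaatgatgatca
Each stretch reads 5′ to 3′ along its gene. They lie at chr9:98119223-98119268 (minus strand) for TRIM14, chr4:153151926-153151975 (plus) for TRIM2, chr11:4393663-4393692 (minus) for TRIM21, chr6:30213565-30213620 (minus) for TRIM26, chr11:35662720-35662769 (plus) for TRIM44 and chr15:44736446-44736495 (plus) for TRIM69. TRIM21 and TRIM26 each held 2 overlapping cores. The TRIM21 pair began at base 18 after the start, and in the other 5 promoters the first core began between 26 and 217 bases before it. A p53 half-site was searched by its published consensus on both strands and found in 3 of the 34 TRIM promoters (8.82%) and in 6.54% of all promoters. Of the 6 windows with a core, only that of TRIM21 held a half-site, and it did not overlap the TRIM21 cores. A match describes letters in this window and is not a measured site.

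Intensities are given after quantile normalization of the 8 arrays, in array units. Differences are siESRP minus siGFP on the log2(intensity + 1) scale with values below 0 set to 0, folds are taken from that scale and given where both group means were at least 50, and adjusted p-values are from limma over all 18495 rows with Benjamini-Hochberg adjustment and a threshold of 0.05. Deposited array medians ran from 233 to 286. ESRP1 had a mean of 582 ± 66.9 in siESRP and 2439 ± 169 in siGFP (SD, n = 4 each, limma adjusted p = 6.58e-05), in accord with the labels. The level of ESRP2 was not checked. Of 9 epithelial markers, 8 had a row of their own, of which 3 rose (CDH1, KRT18 and KRT19), ESRP1 fell and 4 did not pass. The epithelial cadherin gene CDH1 averaged 3042 ± 168 in siESRP and 2137 ± 126 in siGFP, and the keratin gene KRT8 averaged 6964 ± 289 in siESRP and 6690 ± 411 in siGFP. The luminal prostate markers reported here were at or near background: KLK3 averaged 65.2 in siESRP and 61.7 in siGFP, and TMPRSS2 averaged 32.5 in siESRP and 22.2 in siGFP.

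The siRNA against ESRP1 and ESRP2 left most TRIM genes without a call and moved a minority in both directions. Of 47 TRIM rows, 7 were higher in siESRP, 4 were lower and 36 did not pass. The share called was 23.4%, against 20.2% of all rows, so it was near the background. By direction, 10.9% of all rows were higher and 9.31% were lower. Among the 32 TRIM rows with a mean intensity of at least 100, 10 were called, or 31.2%, against 28.4% of all rows that bright. Of these 10, 6 were higher and 4 lower, where 14.9% of all such rows were higher and 13.5% lower. Separate groups, with no overlap of arrays, were found in 12 TRIM rows, or 25.5%, against 24.6% of all rows. The median log2 difference was 0.00 over TRIM rows and −0.02 over all rows. A change of at least 1.5-fold was called in 3 TRIM rows, TRIM22, TRIM41 and TRIM68, and in 7.08% of all rows. When 1 array was left out, the number of TRIM rows called fell to between 5 and 9. The share was then 10.6% to 19.1%, against 14.7% to 20.5% of all rows. For arrays as deposited the number was 4, or 8.51% against 9.05% of all rows, where the median of all rows was −0.10. After median scaling it was 7, or 14.9% against 16.5% of all rows, where that median was −0.11. In bulk samples, fewer cells of a type and less RNA per cell cannot be told apart.

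**Figure D1:**
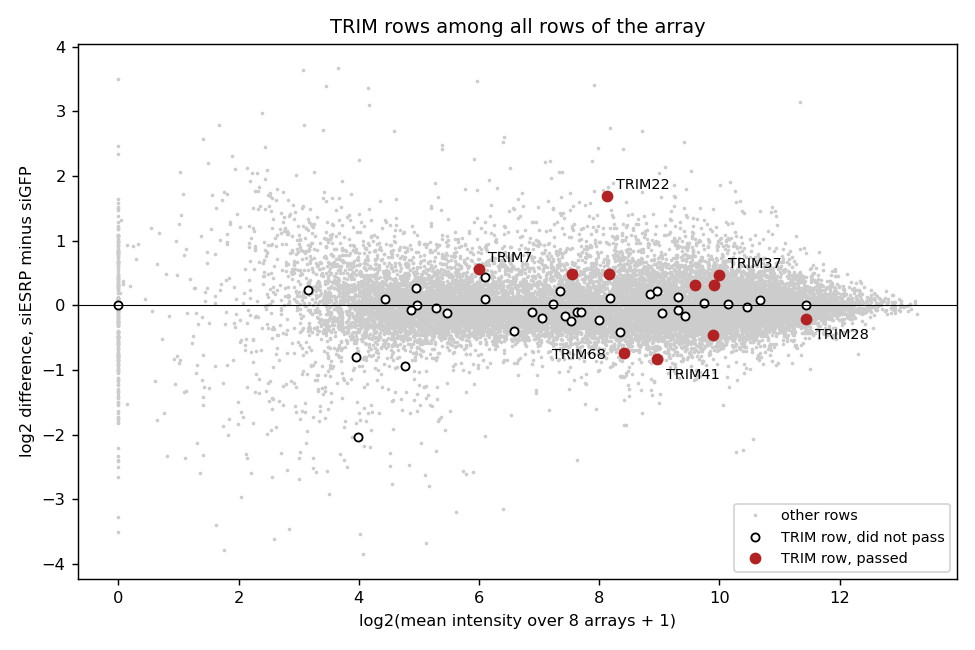
Each dot is 1 row of the array, with its mean intensity over the 8 arrays on the x axis, log2(mean + 1), and its log2 difference, siESRP minus siGFP, on the y axis. Grey dots are rows outside the family, red dots the 11 TRIM rows that passed and open circles the 36 that did not. TRIM22 stands highest among the TRIM rows, and TRIM41 and TRIM68 are the lowest of those that passed.

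TRIM22, an interferon-induced antiviral ligase that is also a known p53 target gene, had the largest increase of the family. Its row read 510.0, 498, 346 and 354 in the 4 siESRP arrays, against 164.5, 126, 121.5 and 112.5 in the 4 siGFP arrays. The lowest siESRP array was above the highest siGFP array by more than the whole siGFP range, and within siESRP replicates 1 and 2 were higher than replicates 3 and 4. TRIM22 averaged 427 ± 89.2 in siESRP and 131 ± 23.0 in siGFP (SD, n = 4 each), a 3.22-fold increase (log2 difference 1.69 ± 0.18 SE, limma adjusted p = 0.00114). The call held in all 14 settings run, with log2 differences between 1.56 and 1.82. TRIM22 is abundant in leukocytes, so leukocyte markers are given beside it. Of 8 such markers, 6 had a row of their own and 4 of these had means under 50 in both groups. PTPRC, which encodes CD45, averaged 12.8 in siESRP and 10.7 in siGFP, and the summed level of the 6 markers ran from 246 to 342 in siESRP arrays and from 320 to 355 in siGFP arrays. One of the 6, the macrophage receptor gene CSF1R, passed and was lower, at 80.9 ± 7.22 in siESRP and 154 ± 23.6 in siGFP.

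Among the TRIM rows that passed, the 2 largest decreases were those of TRIM41 and TRIM68, both of the PRY-SPRY branch. TRIM41, a ligase reported to act on protein kinase C, read 365, 310.5, 357 and 392.2 in siESRP arrays, against 713, 621, 631 and 575 in siGFP arrays. The groups were far apart, with a mean of 356 ± 34.0 in siESRP and 635 ± 57.5 in siGFP (SD, n = 4 each), a 1.78-fold decrease (log2 difference −0.83 ± 0.09 SE, limma adjusted p = 0.00136). TRIM68, a RING ligase, read 261, 246, 264 and 238 in siESRP arrays, against 503, 385, 381 and 433 in siGFP arrays. Its 4 siESRP values lay close together, below every siGFP value, and the means of 253 ± 12.3 in siESRP and 425 ± 56.7 in siGFP gave a 1.67-fold decrease (log2 difference −0.74 ± 0.10 SE, limma adjusted p = 0.00244). Both calls held in all 14 settings run.

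Of the called rows with smaller changes, TRIM37 and TRIM28 kept their calls without any single array. TRIM37, a ligase of the centrosome and of chromatin whose loss causes Mulibrey nanism, read 1239, 1315, 1076 and 1118 in siESRP arrays, against 864, 828, 826 and 899.8 in siGFP arrays. All siESRP values were above all siGFP values, with means of 1187 ± 109.9 in siESRP and 854 ± 35.0 in siGFP, a 1.39-fold increase (log2 difference 0.47 ± 0.07 SE, limma adjusted p = 0.00518). For arrays as deposited the TRIM37 adjusted p was 0.0531. TRIM28, also called KAP1, is the corepressor that KRAB zinc finger proteins recruit to silence retroelements. It read 2547, 2615, 2458 and 2649 in siESRP arrays, against 3056, 2988, 2914 and 2908 in siGFP arrays, a small shift with tight and separate groups. TRIM28 averaged 2567 ± 84.5 in siESRP and 2966 ± 70.0 in siGFP, a 1.16-fold decrease (log2 difference −0.21 ± 0.04 SE, limma adjusted p = 0.0119). The TRIM28 call ended for arrays as deposited (log2 difference −0.20, adjusted p = 0.371, all-row median −0.10) and after median scaling (−0.22, adjusted p = 0.0936, all-row median −0.11).

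**Figure D2:**
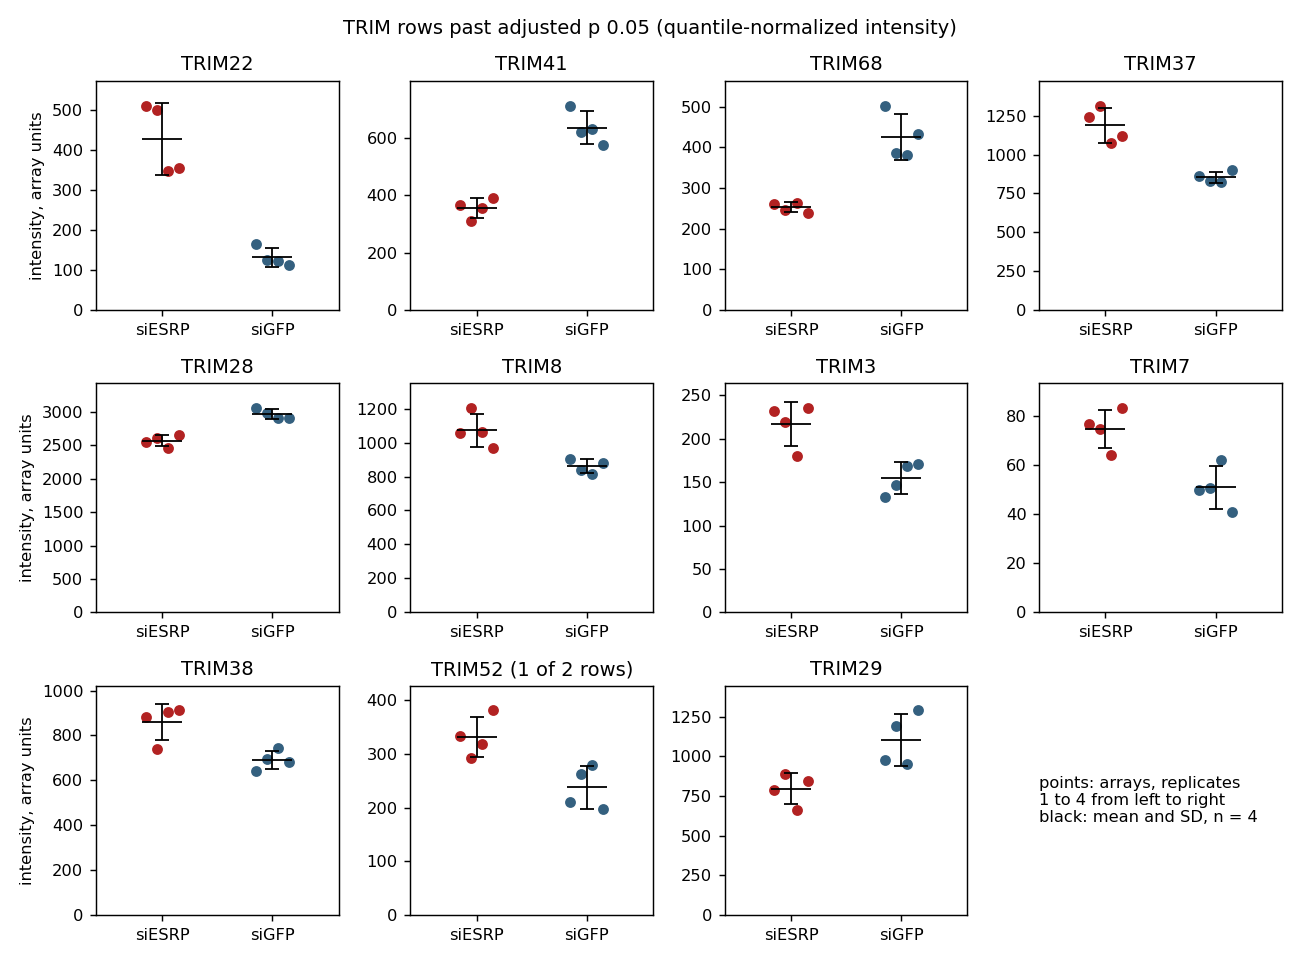
Quantile-normalized intensity (array units, y axis from 0) of the 11 TRIM rows that passed, with 1 panel per row, siESRP on the left and siGFP on the right. Points are single arrays and black marks the mean and SD of 4. The groups are separate in each panel except that of TRIM38, and the distance is largest relative to the level for TRIM22.

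The other 6 called rows were nearer the threshold. TRIM8, which regulates cytokine and NF-kappaB signalling and stabilizes p53, read 1054, 1203, 1062 and 965 in siESRP arrays, against 906, 839, 817 and 882 in siGFP arrays (log2 difference 0.31 ± 0.07 SE, limma adjusted p = 0.0256). TRIM3, an NHL-repeat ligase best known from neurons, read 232, 219.6, 181 and 236 in siESRP arrays, against 133, 147, 169 and 171 in siGFP arrays (0.49 ± 0.12, adjusted p = 0.0275). Both pairs of groups were separate, TRIM3 by a narrow gap through siESRP replicate 3. TRIM38, a regulator of innate immune signalling, read 882, 741, 905 and 911 in siESRP arrays, against 643, 693, 743 and 683 in siGFP arrays (0.31 ± 0.08, adjusted p = 0.0359), and siESRP replicate 2 lay below siGFP replicate 3. TRIM7, a ligase that binds glycogenin, was dim, at 77.0, 74.6, 64.4 and 83.4 in siESRP arrays, against 49.8, 50.6, 62.4 and 41.1 in siGFP arrays (0.55 ± 0.14, adjusted p = 0.0279). Its siGFP mean of 51.0 was below the siGFP mean of KLK3 (61.7), given above as at or near background. TRIM29, a member without a RING finger that binds p53 and is expressed in stratified epithelia, read 785, 888.5, 662 and 845.5 in siESRP arrays, against 977, 1189, 952 and 1289 in siGFP arrays (−0.47 ± 0.13, adjusted p = 0.0497). All 4 siESRP values of TRIM29 were below the siGFP values.

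The 2 rows of TRIM52, which encodes a RING member without a SPRY domain, disagreed. Row 2845078 read 334, 293, 319 and 381 in siESRP arrays, against 211, 263, 279 and 198 in siGFP arrays (log2 difference 0.49 ± 0.14 SE, limma adjusted p = 0.0454). The other row, 2891092, averaged 191 ± 22.6 in siESRP and 206 ± 24.4 in siGFP (SD, n = 4 each; −0.11 ± 0.11, adjusted p = 0.582), with overlapping groups. An increase of TRIM52 therefore stands on row 2845078 alone. That row is numbered close to TRIM41 (row 2845043), a plus-strand gene. Row 2891092 is numbered close to TRIM7 (row 2891015), a minus-strand gene like TRIM52. The strand of each row was not available, and whether row 2845078 reads TRIM52 itself was not tested. What separates the 2 rows was not tested.

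Calls of these 6 rows ended when single arrays were left out. TRIM8 did not pass without siGFP replicates 2, 3 or 4 or siESRP replicate 1 (adjusted p from 0.0545 to 0.0662). TRIM3 did not pass without siGFP replicates 1 or 2 or siESRP replicates 1, 2 or 4 (0.0598 to 0.0758). TRIM7 did not pass without siGFP replicates 1, 2 or 4 or siESRP replicates 1, 2 or 4 (0.0521 to 0.0741). TRIM38 did not pass without siGFP replicates 1, 2 or 4 or siESRP replicates 1, 3 or 4 (0.0743 to 0.0926). TRIM52 row 2845078 did not pass without siGFP replicates 1, 2 or 4 or any 1 of the 4 siESRP replicates (0.0551 to 0.107), and TRIM29 did not pass without any 1 of the 8 arrays (0.0505 to 0.112). Each kept its direction in all settings run. Just outside the threshold was TRIM2, an NHL-repeat ligase of neurofilament light chain, with 309.9, 256, 251 and 292 in siESRP arrays, against 406, 336, 430.2 and 310.4 in siGFP arrays (−0.41 ± 0.13, adjusted p = 0.0619). Its groups were separate by less than 1 unit. TRIM2 did pass, as lower, without the dimmest 25% of rows, with a trended and robust variance model and without siGFP replicate 4.

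Interferon-linked TRIM genes did not move as a body. Of 10 interferon-induced TRIM genes listed, 8 had a row of their own, and of these TRIM22 and TRIM38 rose, 0 fell and 6 did not pass (median log2 difference 0.00). Of all rows, 10.9% were higher. TRIM25, the ligase that activates RIG-I, averaged 1397 ± 118 in siESRP and 1420.1 ± 74.5 in siGFP (SD, n = 4 each), with a log2 difference of −0.03 (95% interval −0.20 to 0.15). TRIM21, the cytosolic antibody receptor, averaged 616 ± 78.9 in siESRP and 648 ± 42.9 in siGFP, with a difference of −0.08 (−0.31 to 0.15). TRIM14, an adaptor of RNA-sensing signalling, averaged 652 ± 46.2 in siESRP and 730.1 ± 52.96 in siGFP (−0.16, −0.34 to 0.01). TRIM26 (0.02, −0.30 to 0.34) and TRIM56 (−0.11, −0.42 to 0.21) did not pass either, and TRIM69 was near background, at 21.4 in siESRP and 20.03 in siGFP. The upper bounds of TRIM14, TRIM21, TRIM25 and TRIM56 lay below the 0.31 measured for TRIM38, and that of TRIM26 did not. TRIM38 itself had a 95% interval of 0.12 to 0.51. The upper bounds of TRIM21, TRIM25, TRIM26 and TRIM56 lay within that interval, and a difference between TRIM38 and these genes was not tested.

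The wider list of TRIM genes of RNA sensing and antiviral signalling had 10 of 12 genes on rows of their own. TRIM8 and TRIM38 rose, 0 fell and 8 did not pass (median −0.05), where 10.9% of all rows were higher. Besides those above, TRIM4 had a difference of −0.24 (95% interval −0.57 to 0.09) and TRIM27 one of 0.03 (−0.19 to 0.25). TRIM31 averaged 41.7 in siESRP and 45.1 in siGFP, and TRIM65 was below 0 on all 8 arrays, so no change could be measured for it.

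Interferon-induced genes outside the TRIM family were listed with their result already known. Of 27 listed, 22 had a row, 13 fell, 0 rose and 9 did not pass (median log2 difference −0.39), where 9.31% of all rows were lower. The differences of these 22 ran from −1.67 to 0.11. RSAD2, which encodes the antiviral enzyme viperin, averaged 201 ± 37.1 in siESRP and 640.3 ± 113 in siGFP (SD, n = 4 each, limma adjusted p = 0.000916). The RNA-binding oligoadenylate synthetase OAS3 averaged 974.6 ± 117 in siESRP and 1930.5 ± 113 in siGFP (adjusted p = 0.000715). Of 11 genes in the pathway around TRIM25, 5 fell, 0 rose and 6 did not pass (median −0.21). IFIH1, which encodes the RNA sensor MDA5, fell 1.69-fold (adjusted p = 0.00110), the transcription factor gene IRF7 fell 1.69-fold (0.00857), the adaptor ligase TRAF6 fell 1.24-fold (0.00490) and the antiviral protein gene ZC3HAV1 fell 1.21-fold (0.0455). The fifth was RIGI, named to complete the count, at 1712 ± 205 in siESRP and 2164 ± 151 in siGFP (adjusted p = 0.0482).

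The ISRE cores shown above can be set beside these values. Of the 6 TRIM genes whose promoter window held a core, TRIM2, TRIM14, TRIM21, TRIM26, TRIM44 and TRIM69, 0 rose and 0 fell (median log2 difference −0.03). Of the 28 TRIM genes whose window held none, 4 rose and 2 fell (median 0.00), with TRIM52, whose rows differed, counted in neither direction. Over all rows, 10.9% were higher and 9.31% were lower. The called genes TRIM8, TRIM22, TRIM28 and TRIM29 had no promoter found and stand in neither set. TRIM44, which has a ubiquitin protease type of zinc finger in place of a RING, averaged 2794 ± 134 in siESRP and 2779 ± 182 in siGFP (0.01, 95% interval −0.14 to 0.15). Of the 22 other interferon-induced genes with a row, 18 had a promoter in the table. Among 12 of these with a core, 8 fell and 0 rose (median −0.41), and among the 6 without, 2 fell and 0 rose (median −0.20). The sets are small and the difference between them was not tested.

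TRIM genes linked to p53 moved in both directions. Of 10 listed, 6 had a row of their own: TRIM22 and TRIM8 rose, TRIM28 and TRIM29 fell, and TRIM24 and TRIM32 did not pass. Over all rows, 20.2% were called in either direction. TRIM24, a TIF1 protein that targets p53 for degradation, averaged 665 ± 82.3 in siESRP and 605 ± 28.9 in siGFP (SD, n = 4 each; log2 difference 0.13, 95% interval −0.10 to 0.36). TRIM32, a ligase mutated in a limb-girdle muscular dystrophy, averaged 533 ± 41.9 in siESRP and 463 ± 98.8 in siGFP (0.22, −0.14 to 0.59). Among p53 target genes outside the family, likewise listed with their result known, 14 of 18 measured rose, 0 fell and 4 did not pass (median 0.74). The share of all rows that were higher was 10.9%. Examples of these p53 targets by smallest p were TP53INP1, at 441 ± 71.8 in siESRP and 40.8 ± 7.48 in siGFP, and the genes DDB2, RRM2B and POLH, which rose 1.94-fold, 3.03-fold and 1.54-fold (adjusted p at most 0.000261).

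**Figure D3:**
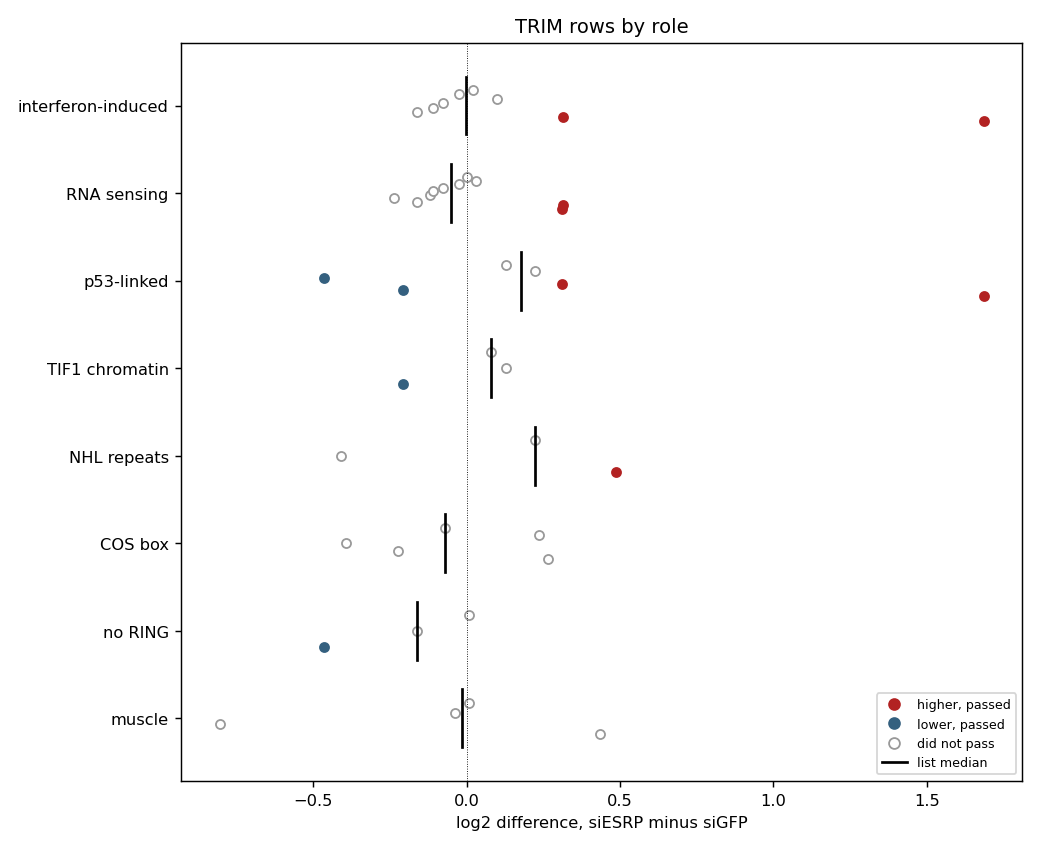
TRIM rows by role (y axis) and log2 difference, siESRP minus siGFP (x axis); red dots rose, blue dots fell, open circles did not pass, and the black bar is the list median. A gene can stand in several lists. TRIM22 at 1.69 lies far from the other interferon-induced members, and the p53-linked list holds calls on both sides of 0.

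The TIF1 branch, which represses transcription through chromatin, had 3 of 4 genes on rows of their own, and of these only TRIM28 passed. TRIM33, a ligase that acts on SMAD4, averaged 1686 ± 142 in siESRP and 1596 ± 131 in siGFP (SD, n = 4 each; log2 difference 0.08, 95% interval −0.12 to 0.28). Of 13 listed partners of these proteins 11 had a row, of which 3 rose, 1 fell and 7 did not pass (median 0.02), where 20.2% of all rows were called. The 3 that rose were MDM2, the p53 ligase that TRIM28 binds, 2.76-fold (limma adjusted p = 0.000810), CBX5, which encodes heterochromatin protein HP1 alpha, 1.44-fold (0.0264), and SMAD2, a TGF-beta signal transducer, 1.36-fold (0.0499) on the brighter of its 2 rows. The dimmer SMAD2 row did not pass (log2 difference −0.08, adjusted p = 0.753). SMAD4 fell 1.21-fold (0.0118). MDM2 stands in the p53 list too and is counted in both.

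Of 4 NHL-repeat members 3 had a row of their own: TRIM3 rose, and TRIM2 and TRIM32 did not pass (median log2 difference 0.22). Of 5 COS-box members 0 passed: TRIM36 averaged 233 in siESRP and 273 in siGFP, TRIM46, which organizes axonal microtubules, 82.2 in siESRP and 108 in siGFP, and TRIM9, TRIM42 and TRIM67 had means under 50 in both groups. Muscle members were dim. TRIM54, TRIM63 (MuRF1) and TRIM72 had means under 50 in both groups, and TRIM55 averaged 77.6 ± 12.6 in siESRP and 57.2 ± 9.84 in siGFP (SD, n = 4 each, limma adjusted p = 0.121). Muscle markers did not pass either: 5 of 7 had a row, 0 rose and 0 fell. Of these 5, only 1 had means under 50 in both groups, and the brightest, ACTA1, averaged 474 in siESRP and 517 in siGFP. In the PRY-SPRY branch 21 of 31 listed genes had a row of their own, and 3 rose, 2 fell and 16 did not pass (median −0.03). Calls over all rows came to 20.2%, and no branch was tested against that share.

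In all, 11 of the 47 rows had both group means under 50, and 0 of these passed. They were TRIM9, TRIM11, TRIM15, TRIM31, TRIM42, TRIM54, TRIM63, TRIM65, TRIM67, TRIM69 and TRIM72. Calls were rare in dim rows of the whole array. Of the 15 TRIM rows with a mean intensity under 100, 1 was called, or 6.67%, against 5.49% of all rows that dim. TRIM11 had the most negative log2 difference of the family, −2.04, with a 95% interval of −6.09 to 2.00: its values were −19.2, −11.5, 39.0 and 5.38 in siESRP arrays, against 54.6, 31.1, −20.9 and 40.0 in siGFP arrays. TRIM15 averaged 18.8 ± 11.1 in siESRP and 33.6 ± 4.49 in siGFP (adjusted p = 0.102). Levels this low cannot be told from background. The remaining rows that did not pass, TRIM10, TRIM17, TRIM35, TRIM40, TRIM45, TRIM47, TRIM60, TRIM62 and TRIM67-AS1, had log2 differences between −0.20 (TRIM10) and 0.22 (TRIM17). TRIM17, a ligase known from neuronal apoptosis, had groups that did not overlap, at 159 to 208 in siESRP arrays and 143 to 155 in siGFP arrays (adjusted p = 0.155).

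**Figure D4:**
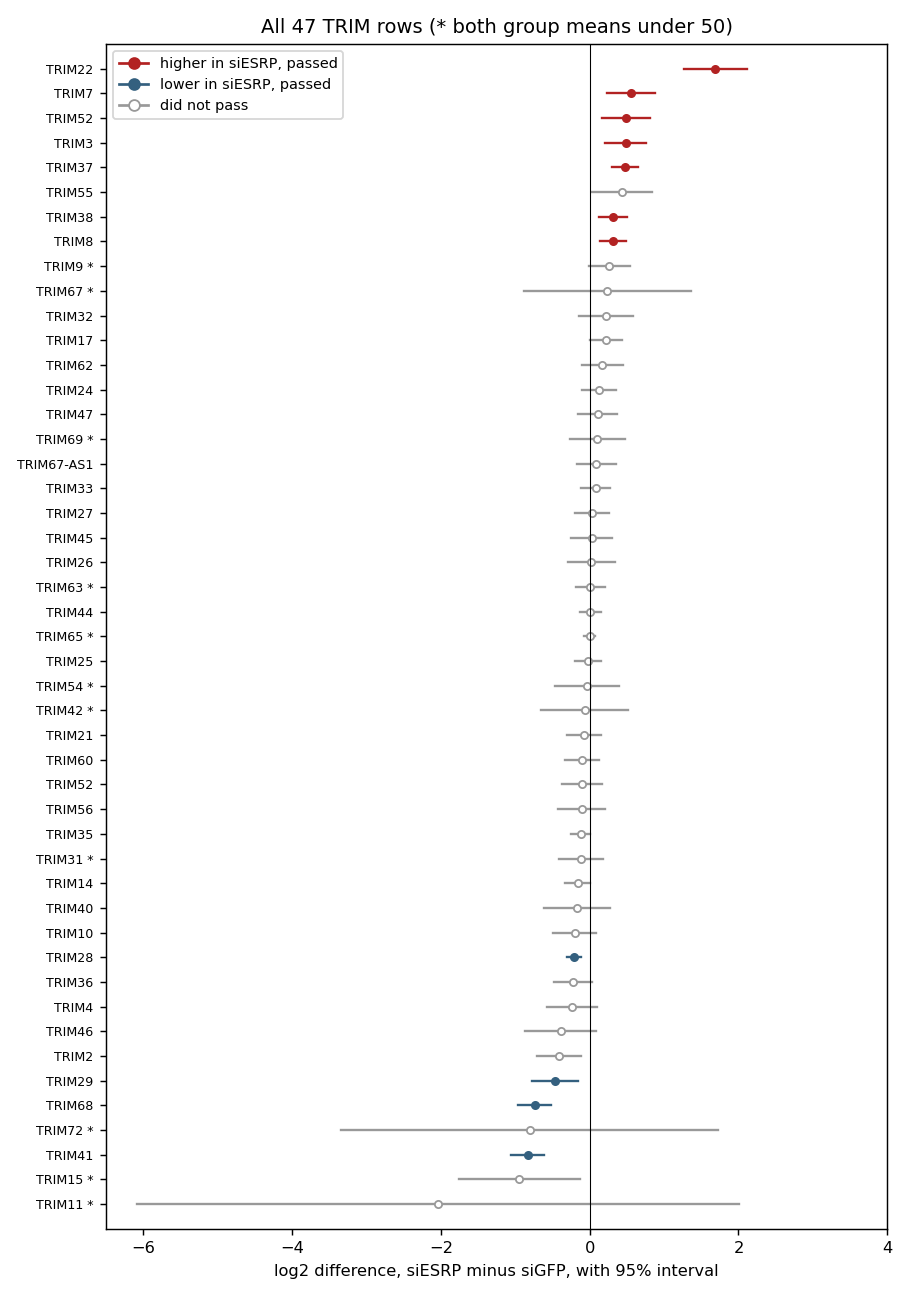
The 47 TRIM rows sorted by log2 difference, siESRP minus siGFP (x axis), each with its 95% interval; red rows rose, blue rows fell and open grey circles did not pass. A star marks rows whose means were under 50 in both groups, and TRIM11 and TRIM72 among them have the widest intervals.

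Some family members are neighbours in the genome. In the RefSeq gene table (GRCh38.p14) TRIM7 and TRIM41 on chromosome 5 have 0 protein-coding genes between them. TRIM7, a dim row, rose while TRIM41 fell. TRIM52, of whose 2 rows 1 rose, lies beyond TRIM41 with 1 protein-coding gene, RACK1, between. Chromosome 11 held 6 TRIM rows, of which TRIM3 and TRIM22 rose, TRIM29 and TRIM68 fell and TRIM21 and TRIM44 did not pass. TRIM68 and TRIM21, both on the short arm, have 5 protein-coding genes between them, all olfactory receptors. On chromosome 6, TRIM31, TRIM40, TRIM10, TRIM15 and TRIM26 stand in a row with no other protein-coding gene between, and 0 of these 5 passed. Chromosome 1 held 9 TRIM rows and 0 passed. Over the whole array 20.2% of rows were called. These sets are small, and a link to position was not tested.

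Relatives with the same RING, B-box and coiled-coil plan, or a part of it, but no numbered TRIM symbol had 1 gene higher, 2 lower and 5 not past the threshold. Calls were made in 20.2% of all rows. Of 8 listed, RNF207 rose 1.51-fold, with means of 361 ± 57.6 in siESRP and 238 ± 25.3 in siGFP (SD, n = 4 each, limma adjusted p = 0.0193). This is the brighter of 2 RNF207 rows, and the other did not pass (log2 difference 0.02, adjusted p = 0.964). BSPRY, a B-box and SPRY protein of epithelia, was lower, at 429 ± 38.1 in siESRP and 579 ± 51.0 in siGFP (adjusted p = 0.0144). TRIML1 passed near background, at 19.9 in siESRP and 28.6 in siGFP (adjusted p = 0.0295). MID2, a microtubule-binding ligase, averaged 355 in siESRP and 303 in siGFP and did not pass (adjusted p = 0.192). Of 12 listed genes for E2 enzymes and E2 variants, 6 had a row of their own, 0 rose, 0 fell and the log2 differences ran from −0.35 to 0.09. The variants among these 6 were UBE2V1 and UBE2V2.

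**Figure D5:**
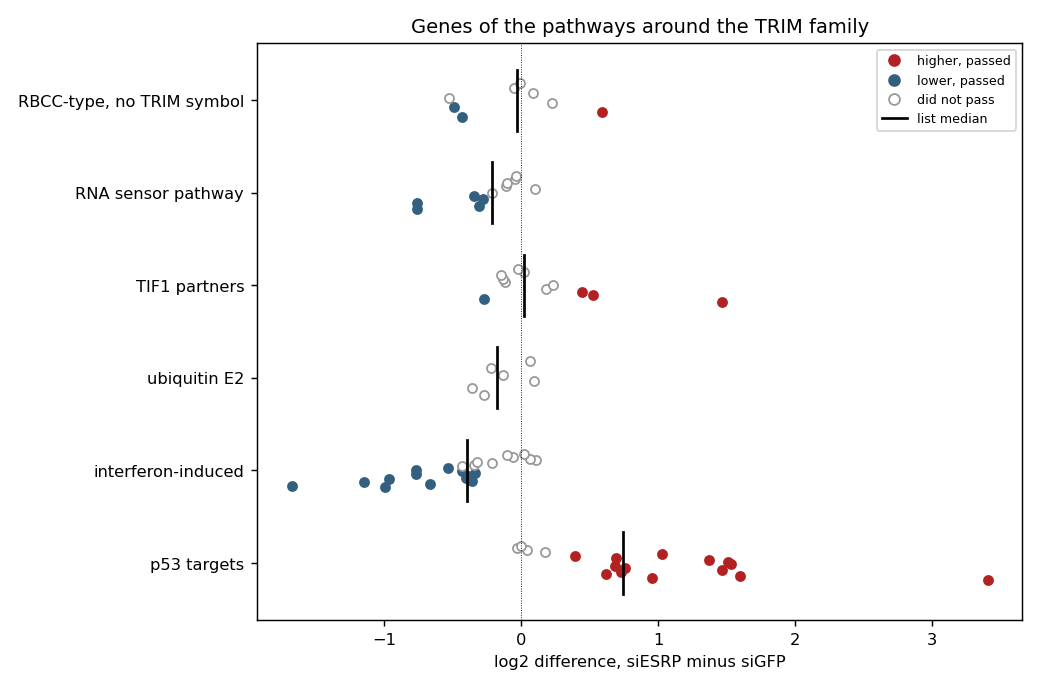
Log2 differences, siESRP minus siGFP (x axis), of genes outside the numbered TRIM family, by list (y axis); red dots rose, blue dots fell, open circles did not pass, and the black bar is the list median. The interferon-induced list has its median at −0.39 and the p53 list at 0.74.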

How the data were processed

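Gene-level values from 8 exon arrays were used as deposited. The deposited table holds linear intensity values, 1 per row and array; how the authors corrected background, summarized probes or scaled arrays is not given in the sources used here. Between 2.70% and 4.02% of values per array lay below 0. Quantile normalization was applied to the linear values, negative ones were then raised to 0, and log2(value + 1) was tested with limma 3.58.1 (R 4.3.3; lmFit and eBayes, 2 groups, no covariate, two-sided). Means and SDs are normalized intensities before the floor. The number of arrays limits the precision. Names come from GEO's platform annotation, updated through Entrez IDs with RefSeq. Arrays of 18495 rows were simulated in which 200 rows were changed, all with a mean intensity of at least 100. The fit recovered 57 of 100 rows given a 1.5-fold change and 80 of 100 given a 2-fold one, and called 9 unchanged rows. In the measured arrays 3729 rows were called. The adjustment therefore acts differently there, and the recovered shares do not carry over to these data or to dimmer rows. Named with statistics are TRIM22, member rows past the threshold, ESRP1 and up to 4 genes by smallest p of each pathway list; other members are named with values. For a gene outside the family with several rows, the row with the highest mean was used. The members and lists were chosen with earlier results of these data known. Same-numbered arrays of the 2 groups did not deviate together (correlations from −0.268 to 0.154), so no pairing was used.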

Additional observations from a re-analysis of the deposited data

Results flagged for a closer look

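For each TRIM row and group, the gap between the most extreme array and its nearest neighbour was divided by the range of the 4 arrays. This ratio passed Dixon's 95% critical value of 0.829 in 3 of 94 cases, and chance alone gives about 1 in 20. TRIM14 had a ratio of 0.926 in siESRP, with replicate 2 at 721 and the other 3 arrays at 624 to 632. TRIM55 had a ratio of 0.956 in siGFP, with replicate 4 at 42.5 and the others at 61.6 to 62.5. TRIM31 had a ratio of 0.882 in siGFP, with replicate 3 at 39.0 and the others at 46.5 to 47.5, all near background. None of these 3 rows was called.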

How the results depend on the processing

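Under 14 alternatives in scaling, pseudocount, filter, variance model, block and arrays used, none of the 11 called TRIM rows changed direction. The calls of TRIM22, TRIM41 and TRIM68 held in all 14, TRIM37 in 13 and TRIM28 in 11. Of 47 TRIM rows, 11 were called as reported, 4 for arrays as deposited, 7 after median scaling and 3 with at least 1.5-fold. Without 1 array the number was between 5 and 9. It was 11 with a pseudocount of 16 and 12 with a trended and robust variance model (25.5%, against 22.1% of all rows). Without the dimmest 25% of rows, 12 of 36 TRIM rows were called, or 33.3%, against 28.6% of all rows kept. Over all rows, 3729 were called as reported, 1673 on the deposited scale and 3057 after median scaling. The all-row count was 1309 with at least 1.5-fold and between 2719 and 3793 without 1 array. With the replicate number as a block, which the arrays do not bear out as a pairing, 5 TRIM rows (10.6%) and 2292 rows in all (12.4%) were called. TRIM28 was not called with that block (limma adjusted p = 0.0679). Among the arrays, siESRP replicate 1 deviated most like siGFP replicate 3 (r = 0.51). The median log2 difference of TRIM rows was 0.00 as reported, −0.11 for arrays as deposited and −0.13 after median scaling, beside all-row medians of −0.10 and −0.11, and ran from −0.03 to 0.01 without 1 array. The cause of these shifts was not tested. Rows near background limit what can be measured.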

Other observations

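The 18 rows that join a TRIM symbol to another symbol were tested but not used above. Of these, 1 was higher in siESRP, 3 were lower and 14 did not pass (limma, adjusted p under 0.05), with a median log2 difference of −0.02. The share called was 22.2%, near the 20.2% of all rows.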
